A study of Mus musculus with 6 samples.

Results

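Ion channels are membrane proteins that let ions cross along their gradients, and G protein-coupled receptors are membrane proteins that pass a signal from a ligand outside the cell to G proteins inside it. Channel families differ in what opens them, which may be voltage, a ligand, stretch, or calcium released from stores. Receptors act through the alpha and beta-gamma subunits of G proteins on cyclic AMP, on calcium stores and on the actin cytoskeleton, and RGS proteins shorten the signal by speeding up GTP hydrolysis on the alpha subunit. In epithelial cells such proteins set the membrane potential, the cell volume and calcium signals, and in ovarian cancer ascites several of the receptor ligands (lysophosphatidic acid, sphingosine 1-phosphate, ATP and proteases) are known to be abundant.

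Members were the protein-coding genes whose deposited symbols begin with the family names of channels, receptors and RGS proteins, and there were 142 of them among the 6901 protein-coding genes and 7320 genes of the deposited table. In the RefSeq annotation of GRCm38.p6, 495 protein-coding symbols match the same rule. Those outside the table were not analysed here, since the table lists only genes that the authors had already called different between the lines. A call here therefore repeats that selection on the same libraries and is not independent of it. Of the 142 members, 81 were channel subunits, 45 receptors, 7 RGS proteins and 9 proteins of other kinds whose symbols match the rule. Adhesion receptors appeared in the table under their older numbered names, so that Gpr133 is Adgrd1, Gpr56 is Adgrg1, Gpr125 is Adgra3, Gpr124 is Adgra2, Gpr64 is Adgrg2 and Gpr97 is Adgrg3 in current use, and Clcn4-2 is Clcn4.

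The study compared RNA of 2 mouse ovarian cancer lines of C57Bl6 origin, each grown for 5 days as floating tumorspheres in serum-free PromoCell medium. ID8 is a clonal line of ovarian surface epithelium that became immortal without an introduced oncogene, and was taken at passages 23, 24 and 35. KMF, labelled ID8-IP, is a line recovered from the ascites of mice that had received ID8 cells and was taken at passages 14, 17 and 22. No treatment was given, each group is 1 line, and the passage ranges do not overlap, so that line and passage cannot be told apart. Since the 3 libraries of a line are passages of the same cells, p-values measure the spread between these cultures.

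The 6 libraries held between 23108407 and 33212313 fragments on genes. Counts were compared with edgeR's quasi-likelihood test (2-sided), with p-values adjusted over the 17359 genes of the authors' own test, and a gene with an adjusted p under 0.05 is termed called. The table leaves out markers that the authors did not call different, at whatever level they were expressed. The sums below therefore cover only markers in the table and are not levels of the whole marker lists. Of the listed markers of ovarian surface epithelium and mesothelium, 7 of 12 were in the table. Their summed level was 728 to 897 CPM (counts scaled to the library total) in ID8 and 555 to 686 CPM in KMF, but single markers moved apart. Msln was called higher, by 1.45 on the log2 scale, and 5 were called lower, Wt1 by 0.45, Gata4 by 1.02, Upk3b by 3.88, Bnc1 by 4.07 and Lrrn4 by 4.08. Epithelial markers (5 of 12 listed) summed to 105 to 192 CPM in ID8 and 28.9 to 39.8 CPM in KMF, with 4 called lower, among them Cdh1 at 8.61 and 0.726 FPKM (fragments scaled to gene length and library total), and 1, Muc1, called higher. Fibroblast and smooth muscle markers (5 of 12) ranged from 238 to 289 CPM and from 40.3 to 70.1 CPM, and neuronal markers (5 of 12) from 66.5 to 94.5 CPM and from 41.5 to 61.7 CPM, with 3 called higher (Rbfox3, Map2 and Syn1, Rbfox3 at 0.00359 and 4.48 FPKM) and 2 called lower (Tubb3 and Snap25). Endothelial markers (4 of 12) summed to 57.0 to 97.2 CPM in ID8 and 167 to 266 CPM in KMF, where Tek was at 35.9 FPKM against 0.0164 in ID8 and Kdr was at 0 counts. Esam, the other endothelial marker that could be fitted, was lower in KMF, at 44.1 and 23.8 FPKM (edgeR adjusted p = 0.016). The only leukocyte marker of 16 in the table, Cd74, was at most at 2.24 CPM, and the levels of the others are not known here. The part of these differences in the results on channels and receptors was not tested, and in bulk RNA fewer cells of a type and less RNA per cell cannot be told apart.

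Members were called lower in KMF more often than higher, and in this the receptors lay nearer to the whole table than the channels did. Of the 142 members, 125 passed the filter on low counts and 121 were called, of which 44 rose and 77 fell in KMF. The remaining 17 members had too few counts to be fitted. The table sets the scale for these counts. Of its 6967 fitted genes 92.9% were called, 45.4% higher and 47.5% lower, against 96.8%, 35.2% and 61.6% of the fitted members. By kind, 32.4% of the fitted channels were called higher and 66.2% lower, and 38.5% and 53.8% of the fitted receptors. For the 7 RGS proteins these shares were 14.3% and 85.7%, and for the fitted proteins of other kinds 62.5% and 37.5%. A change of at least 2-fold was called for 91 members (72.8% of those fitted, against 40.5% of all fitted genes), of which 27 rose and 64 fell. The median log2 fold change, KMF over ID8, was -1.17 over the members and -0.23 over all fitted genes. The members' median was the same with those at 0 in a line set to their bound. With at least 10 counts in every library the 2 medians were -0.59 and 0.20, and by limma on log2(FPKM + 1) they were -0.43 and -0.14. Libraries of the lines did not overlap for 121 of the 125 fitted members, which is 96.8% against 96.6% of all fitted genes. The fitted members passed the filter partly through the line in which they were high, so these shares describe the fitted members and not the family. Leaving out 1 library ended the call of 17 of the 121 in at least 1 of the 6 such fits (among them Kcnh2, Kcnh6, Kcnk16, Kcnq1, Ryr3, Stim1, Ano1, Clic4, Gpr124, Gpr64, Lpar1, Lpar3, Ptgfr, Rgs5 and Trpc4ap), where their highest edgeR adjusted p was 0.0537 to 0.146, and the other 104 were called in all 6. The strand setting of the counting is not given in the sources used here, so reads in stretches shared with a gene on the other strand cannot be assigned. In GENCODE M21 the largest such overlap with a single gene covers 71.0% of the exonic bases of Ptger1, 20.1% of Adora1, 18.04% of Htr1b, 17.7% of Nprl3, 15.3% of Ptger4, 13.9% of P2rx6, 13.5% of Grin1 and 11.5% of Clcn4-2, and under 10% for each of the other members given with values below.

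Low expression went with part of this pattern. Among genes at a mean of 1 to 10 FPKM, the log2 fold change had a median size of 1.55 over 44 members and 0.92 over 2515 genes, and 77.3% against 46.2% differed by at least 2-fold. Above 10 FPKM these shares were 37.1% of 35 members and 22.2% of 3463 genes, with 17 members and 41.7% of the genes lower in KMF. Below 1 FPKM, 36 of 46 members and 69.0% of 989 genes were lower, and 100% against 95% differed by at least 2-fold. A mean above 1 FPKM in both lines was seen for 55 members, in ID8 alone for 23, in KMF alone for 11, and in neither for 53.

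**Figure D1:**
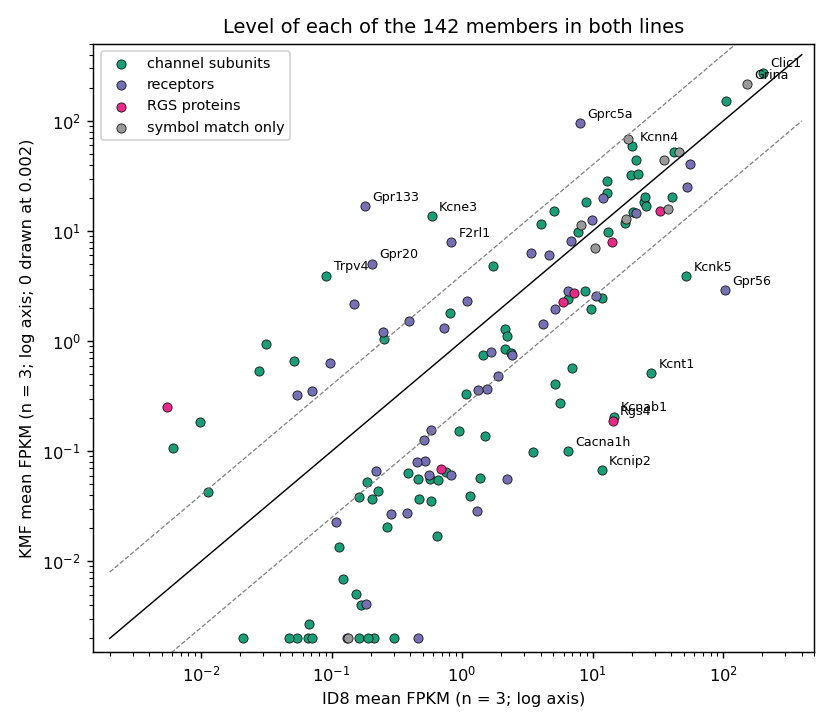
Mean FPKM of each member in ID8 (horizontal, log axis) and KMF (vertical, log axis), n = 3 libraries each, coloured by kind of protein; the solid line marks equal levels, the dashed lines a 4-fold difference, and members at 0 are drawn at 0.002. Points spread far below the line (Kcnip2, Kcnab1, Rgs4, Kcnt1, Cacna1h, Gpr56, Kcnk5) and above it (Gpr133, Trpv4, Gpr20, Kcne3, F2rl1, Gprc5a), while the most abundant members, Clic1 and Grina, lie near it.

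**Figure D2:**
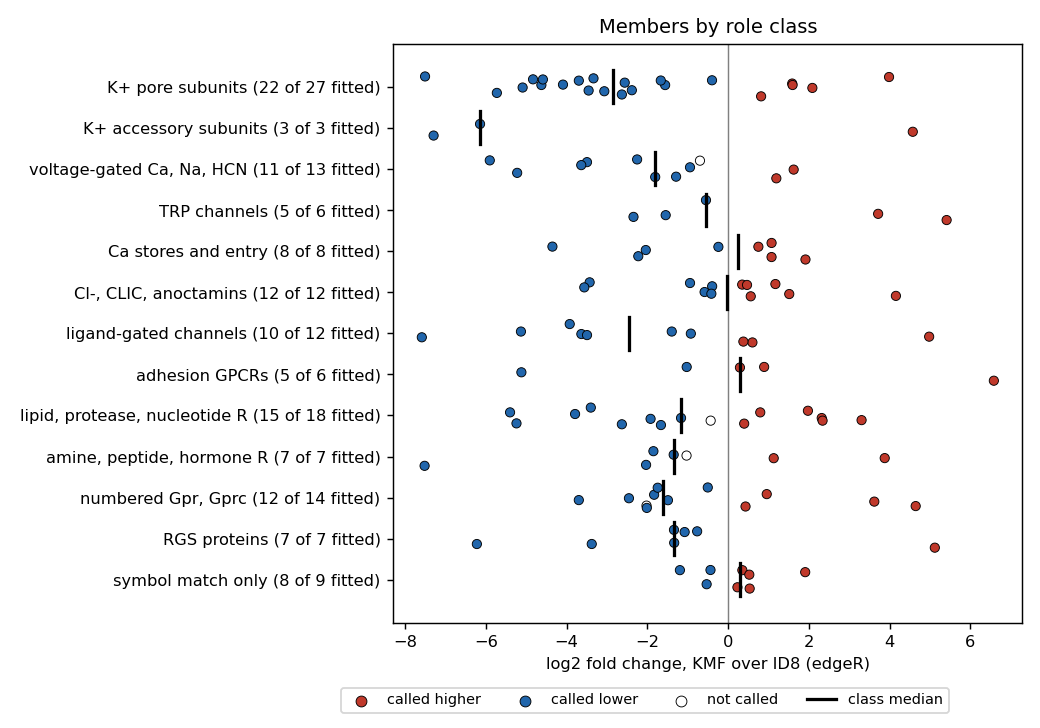
Fitted log2 fold change (KMF over ID8, edgeR) of the 125 fitted members in each role class; each point is a gene, red is called higher, blue called lower, white not called, and black bars mark the class median. Potassium channel pore subunits lie mostly to the left, with 17 called lower and 5 called higher.

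To show which sequences lie before the start sites of the members that changed most, promoters were taken from RefSeq (GRCm38.p6), which gave 140 start sites for 105 members. The members shown are those with the largest called changes in each direction among members with 1 listed start and a mean above 1 FPKM in a line. Each is the 250 bases before the start, 5′ to 3′ on the gene's strand, with CG dinucleotides in capitals.
Kcnip2, chr19:45816064-45816313, minus strand: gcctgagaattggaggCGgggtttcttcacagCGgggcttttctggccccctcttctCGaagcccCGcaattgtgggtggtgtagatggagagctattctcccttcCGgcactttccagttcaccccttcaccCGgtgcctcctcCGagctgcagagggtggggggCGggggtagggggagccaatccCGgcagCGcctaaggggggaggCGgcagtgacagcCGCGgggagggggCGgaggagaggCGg
Rgs4, chr1:169747643-169747892, minus strand: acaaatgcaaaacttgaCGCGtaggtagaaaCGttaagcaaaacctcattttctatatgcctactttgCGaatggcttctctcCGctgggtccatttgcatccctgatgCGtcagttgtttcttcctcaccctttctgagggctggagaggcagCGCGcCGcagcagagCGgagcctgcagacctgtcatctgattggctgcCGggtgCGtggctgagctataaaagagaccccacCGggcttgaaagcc
Trpv4, chr5:114658422-114658671, minus strand: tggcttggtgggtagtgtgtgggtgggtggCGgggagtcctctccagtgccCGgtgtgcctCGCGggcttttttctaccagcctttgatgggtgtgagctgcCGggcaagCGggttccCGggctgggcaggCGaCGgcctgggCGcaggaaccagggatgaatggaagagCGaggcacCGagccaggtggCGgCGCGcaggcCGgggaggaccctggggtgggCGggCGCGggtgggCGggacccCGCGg
Lpar3, chr3:146220711-146220960, plus strand: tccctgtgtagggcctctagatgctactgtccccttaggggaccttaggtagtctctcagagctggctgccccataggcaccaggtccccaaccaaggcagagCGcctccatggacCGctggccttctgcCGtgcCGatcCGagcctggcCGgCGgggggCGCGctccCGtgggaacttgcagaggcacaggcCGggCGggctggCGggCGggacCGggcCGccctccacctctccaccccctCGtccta
These windows held 15, 13, 22 and 17 CG dinucleotides, and the ratio of observed to expected CG was 0.557, 0.724, 0.752 and 0.564, in that order. Over all member promoters the median ratio was 0.520, against 0.685 for listed genes and 0.373 for the 32851 starts in RefSeq, and it was 0.604 at 37 starts of members called higher and 0.542 at 72 starts of members called lower. The letters TATAAA, searched on both strands, were in the Rgs4 window and at 12 of 140 member starts (8.57%), against 7.27% of the starts of listed genes and 12.4% of all starts. The cyclic AMP response element TGACGTCA stood at 2 member starts (1.43%, against 2.57% of listed and 1.55% of all starts) and the AP-1 letters TGANTCA at 10 (7.14%, against 4.85% and 6.75%), both searched on both strands and with no letters in common between their matches. These matches are descriptions of the windows.

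Potassium channel pore subunits were the largest class with 27 members, and of the 22 fitted, 17 fell and 5 rose in KMF. Their median log2 fold change was -2.85. Pore subunits form the ion path, and potassium efflux through them makes the cell interior negative. Kcnt1, a sodium-activated channel (chr2:25863795-25918273), was at 32.0, 17.2 and 35.5 FPKM in ID8 replicates 1 to 3 and at 0.324, 0.618 and 0.594 FPKM in KMF. Its log2 fold change was -5.73 ± 0.35 (SE, n = 3 per line, edgeR adjusted p = 2.67e-05), a 53.0-fold lower level with no overlap between the lines. Kcnk5, an acid-sensitive leak channel and the most abundant member of the class in ID8, fell from 52.2 ± 3.90 (SD) to 3.90 ± 1.30 FPKM, or by 3.70 ± 0.23 (SE) on the log2 scale. Among the other voltage-gated subunits, Kcnd2 was at 1.37 ± 0.60 FPKM (SD) in ID8 and 0.0569 ± 0.027 FPKM in KMF, and Kcna4, Kcna7, Kcnd1, Kcnh1, Kcnh7 and Kcnq5 were called lower at log2 fold changes from -4.62 to -1.67. The leak channels Kcnk1, Kcnk3, Kcnk6 and Kcnk16 and the calcium-activated Kcnn1 were lower too, between -5.09 and -1.56. For members of these groups with few KMF counts 1 library moved the value, as for Kcna7 (-3.76 without KMF replicate 2 and -2.44 without KMF replicate 3), Kcnh1 (-4.42 without KMF replicate 1), Kcnk1 (-6.02 without KMF replicate 2) and Kcnk3 (-4.35 without KMF replicate 3), and Kcnh7 was not called by limma on log2(FPKM + 1) (limma adjusted p = 0.0697). For Kcnk1 the 3 KMF counts gave an ID8 to KMF ratio of 39.0 (95% counting interval 13.01 to 192), and for Kcna4 the 2 KMF counts gave 30.2 (8.01 to 255).

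The potassium channels that rose in KMF included Kcnn4, the most abundant of the class in KMF; in ID8, Kcnk5, Kcnt1 and Kcnh2 were above it. Kcnn4, a calcium-activated channel of epithelial and blood cells, had 17.8, 20.7 and 21.8 FPKM in ID8 and 60.7, 60.2 and 56.5 FPKM in KMF. It rose by 1.60 ± 0.10 on the log2 scale (SE, edgeR adjusted p = 2.50e-05), and the tight KMF values lay well above every ID8 value. Kcnu1, of the large-conductance family, rose from 12.8 ± 2.22 to 22.0 ± 2.88 FPKM (SD). Kcnh6, of the ERG family, rose from 4.02 ± 2.93 to 11.7 ± 3.34 FPKM, although ID8 replicate 3 (7.38 FPKM) stood nearer to KMF replicate 1 (8.17) than to the other ID8 libraries (2.65 and 2.03). Kcnh6 was not called without ID8 replicate 1, ID8 replicate 2, KMF replicate 2 or KMF replicate 3 (edgeR adjusted p = 0.0966, 0.0603, 0.0685 and 0.0896) and was at 2.35 without ID8 replicate 3. Its relative Kcnh2 fell by 0.40 ± 0.11 on the log2 scale, which was not called in 3 of the 6 fits without a library. Kcnq1, a voltage-gated channel of epithelia, was at 0.112, 0.123 and 0.527 FPKM in ID8 and 0.966, 0.557 and 1.60 FPKM in KMF, so that ID8 replicate 3 almost reached the lowest KMF library. Its log2 fold change of 2.09 ± 0.64 (edgeR adjusted p = 0.0349) was not called without ID8 replicate 1 (1.71, edgeR adjusted p = 0.115), ID8 replicate 2 (1.78, edgeR adjusted p = 0.0992), KMF replicate 1 (2.15, edgeR adjusted p = 0.0648) or KMF replicate 3 (1.65, edgeR adjusted p = 0.135), and rose to 3.18 (edgeR adjusted p = 0.00408) without ID8 replicate 3. Kcnq1ot1, a noncoding gene inside Kcnq1 on the other strand, was also higher in KMF (log2 fold change 1.15 ± 0.28, edgeR adjusted p = 0.0145), and the pair shares 121 exonic bases in GENCODE M21, 2.96% of the Kcnq1 exons. Kcnk7 had 3, 0 and 0 counts in ID8 and 16, 17 and 18 in KMF, a KMF to ID8 ratio of 16.9 (5.46 to 84.5, all from counting error only), and its fitted log2 fold change of 3.99 became 7.10 without ID8 replicate 1, the only ID8 library with counts. The fit of Kcnk16, at -1.56 ± 0.52, was the weakest call of the class (edgeR adjusted p = 0.0496), and 5 of 16 alternatives ended it, while without KMF replicate 3 the value was -2.30. Of 5 pore subunits too low to be fitted, Kcnb2, Kcnc2, Kcnj2 and Kcnk13 were at 0 in all KMF libraries and at least 8.40, 11.1, 7.73 and 6.05-fold lower there, and Kcnj16 had 1 KMF count against 19 in ID8.

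Accessory subunits change the gating and transport of pore subunits, and the 3 in the table were among the most strongly changed members. Kcnip2, a calcium-binding partner of the Kv4 pore subunits (chr19:45791839-45816061), was at 14.3, 11.1 and 9.90 FPKM in ID8 and 0.0409, 0.0556 and 0.106 FPKM in KMF. Its log2 fold change was -7.29 ± 0.29 (SE, edgeR adjusted p = 7.38e-06), a 157-fold lower level. Kcnd2, the Kv4 pore subunit in the table beside Kcnd1, fell by 4.59 ± 0.53 in the same fit. Kcnab1, a cytoplasmic beta subunit of the Kv1 channels, held 16.4, 13.6 and 13.3 FPKM in ID8 and 0.194, 0.306 and 0.117 FPKM in KMF, a 70.7-fold difference (log2 fold change -6.14 ± 0.27, edgeR adjusted p = 7.66e-06). Kcne3, a single-pass subunit that keeps Kcnq1 channels open in epithelia, went the other way, from 0.534, 0.963 and 0.263 FPKM in ID8 to 11.4, 12.7 and 16.6 FPKM in KMF (log2 fold change 4.58 ± 0.38, edgeR adjusted p = 8.63e-05). Its KMF libraries were all more than 10-fold above the highest ID8 library.

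Voltage-gated calcium and sodium channels and the HCN pacemaker channels had 13 members, of which 11 were fitted, 8 fell and 2 rose. Cacna1h, the pore subunit of a low-voltage-activated calcium channel, was at 7.07, 5.22 and 7.003 FPKM in ID8 and 0.0670, 0.0789 and 0.154 FPKM in KMF. The 59.8-fold lower level (log2 fold change -5.90 ± 0.28, edgeR adjusted p = 1.04e-05) made it the most changed calcium channel gene. Cacna2d1, an extracellular subunit that raises the surface density of calcium channels, fell from 9.64 ± 0.59 to 1.97 ± 0.12 FPKM (SD), and Cacna2d2, Cacna1a and Cacnb1 fell at log2 fold changes of -3.49, -1.81 and -1.29. Cacnb2 was not called at -0.70 ± 0.25 (edgeR adjusted p = 0.0632), with overlapping lines. Cacnb2 was called without ID8 replicate 2 (-0.88, edgeR adjusted p = 0.0248) and under 4 other settings, RLE scaling (edgeR adjusted p = 0.0494), upper quartile scaling (edgeR adjusted p = 0.0376), adjustment over the fitted genes alone (edgeR adjusted p = 0.0254) and DESeq2 (DESeq2 adjusted p = 0.0239). Scn3a, a sodium channel pore subunit of neurons, had 45, 25 and 59 counts in ID8 and 2, 0 and 1 in KMF, an ID8 to KMF ratio of 43.3 (14.5 to 213), and its fitted log2 fold change of -5.22 ± 0.67 (edgeR adjusted p = 0.000631) became -6.15 without KMF replicate 1. Hcn2, a pacemaker channel subunit, was higher in KMF, at 0.488, 0.895 and 1.06 against 1.69, 1.73 and 2.01 FPKM (1.20 ± 0.29, edgeR adjusted p = 0.0139). Cacna2d3 and Hcn3 were too low to be fitted.

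**Figure D3:**
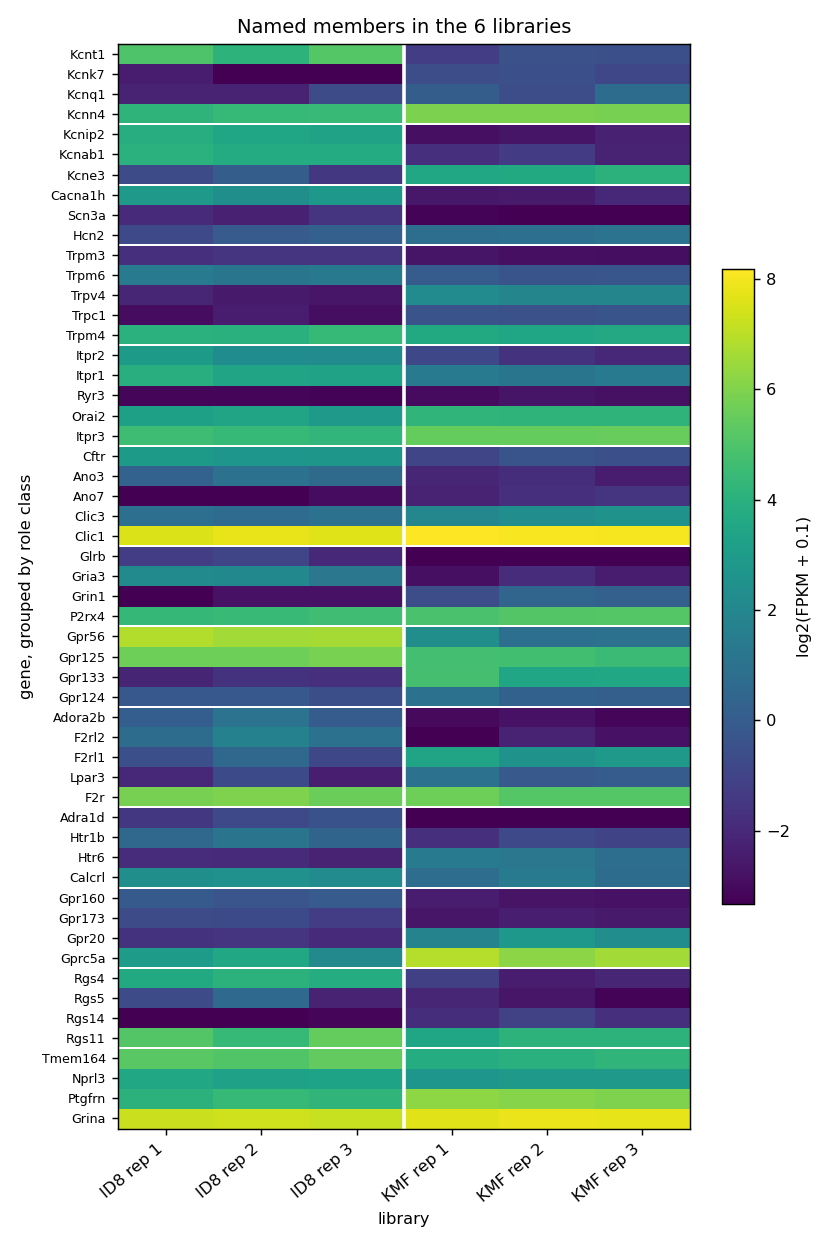
Level of members described with values in every library, as log2(FPKM + 0.1), in the 3 ID8 and 3 KMF libraries (columns), grouped by role class (rows between white lines). Libraries of a line look alike for most genes, and Kcnip2, Kcnab1, Cacna1h, Gpr56 and Rgs4 change from bright in ID8 to dark in KMF while Kcne3, Trpv4, Gpr133, Gpr20 and Htr6 do the reverse.

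TRP channels, which are cation channels opened by heat, swelling, lipids or receptor signals, had 6 members that did not share a direction. Trpv4, which is known to respond to swelling and stretch, was nearly silent in ID8 (0.137, 0.0770 and 0.0604 FPKM) and at 4.52, 3.62 and 3.62 FPKM in KMF. The rise of 5.41 ± 0.30 on the log2 scale (SE, edgeR adjusted p = 1.81e-05) was the largest of the fitted channels. Trpc1, a receptor-operated channel, was at 0.0298, 0.0909 and 0.0342 FPKM in ID8 and 0.660, 0.626 and 0.687 FPKM in KMF (3.72 ± 0.42, edgeR adjusted p = 0.000343), and 4.37 without ID8 replicate 2. Trpc4, its relative, had 32, 19 and 8 counts in ID8 against 0 throughout KMF, at least 19.8-fold lower, and was not fitted. Trpm4, a sodium-permeable channel opened by calcium, was the most abundant, with 16.4, 15.8 and 21.1 FPKM in ID8 and 12.4, 10.9 and 12.2 in KMF (-0.55 ± 0.12, edgeR adjusted p = 0.00751). The magnesium channel Trpm6 fell from 2.55, 2.11 and 2.44 to 0.919, 0.705 and 0.740 FPKM (-1.55 ± 0.16, edgeR adjusted p = 0.000247). Trpm3 was low in both lines, at 0.206, 0.246 and 0.231 FPKM in ID8 and 0.0566, 0.0385 and 0.0357 FPKM in KMF (-2.34 ± 0.33, edgeR adjusted p = 0.00107).

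The release of calcium from the endoplasmic reticulum and its refilling through store-operated entry had 8 members, 4 higher and 4 lower in KMF. Inositol trisphosphate receptors are the release channels. Itpr2 was at 7.52, 4.80 and 4.56 FPKM in ID8 and 0.457, 0.222 and 0.142 FPKM in KMF (log2 fold change -4.35 ± 0.41 SE, edgeR adjusted p = 0.000154), and Itpr1 at 14.98, 10.4 and 9.82 against 2.65, 2.10 and 2.59 FPKM (-2.22 ± 0.18, edgeR adjusted p = 7.27e-05). Itpr3 rose from 24.0, 21.1 and 19.0 to 43.3, 43.6 and 44.7 FPKM (1.08 ± 0.09, edgeR adjusted p = 0.00011). Per length, Itpr3 was thus the most abundant of the 3 in each line, and in KMF it was at 43.9 FPKM against 2.44 for Itpr1 and 0.273 for Itpr2. Stim proteins sense the calcium of the store and Orai proteins form the channel that they open. Stim2 rose from 19.8 ± 0.76 to 32.3 ± 3.31 FPKM (SD, log2 fold change 0.75 ± 0.09), while Stim1 fell from 24.99 ± 1.20 to 20.6 ± 0.65 FPKM (-0.24 ± 0.07, edgeR adjusted p = 0.0289). The call of Stim1 was lost without ID8 replicate 1, ID8 replicate 3, KMF replicate 2 or KMF replicate 3 (edgeR adjusted p = 0.105, 0.0678, 0.105 and 0.142, values from -0.23 to -0.19) and with the replicate block (edgeR adjusted p = 0.075). Orai2 rose from 9.21, 10.3 and 7.04 to 18.6, 18.04 and 17.9 FPKM (1.08 ± 0.14, edgeR adjusted p = 0.000687). Ryanodine receptors, the release channels of muscle, were under 0.2 FPKM in both lines, with Ryr1 lower (-2.04 ± 0.32) and Ryr3 higher in KMF at 0.0132, 0.0134 and 0.00759 against 0.0275, 0.0562 and 0.0449 FPKM (1.92 ± 0.47, edgeR adjusted p = 0.0132). Ryr3 was not called without KMF replicate 2 (1.72, edgeR adjusted p = 0.0537), nor by limma on log2(FPKM + 0.1) (0.35, limma adjusted p = 0.272) or log2(FPKM + 1) (0.04, limma adjusted p of 1).

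**Figure D4:**
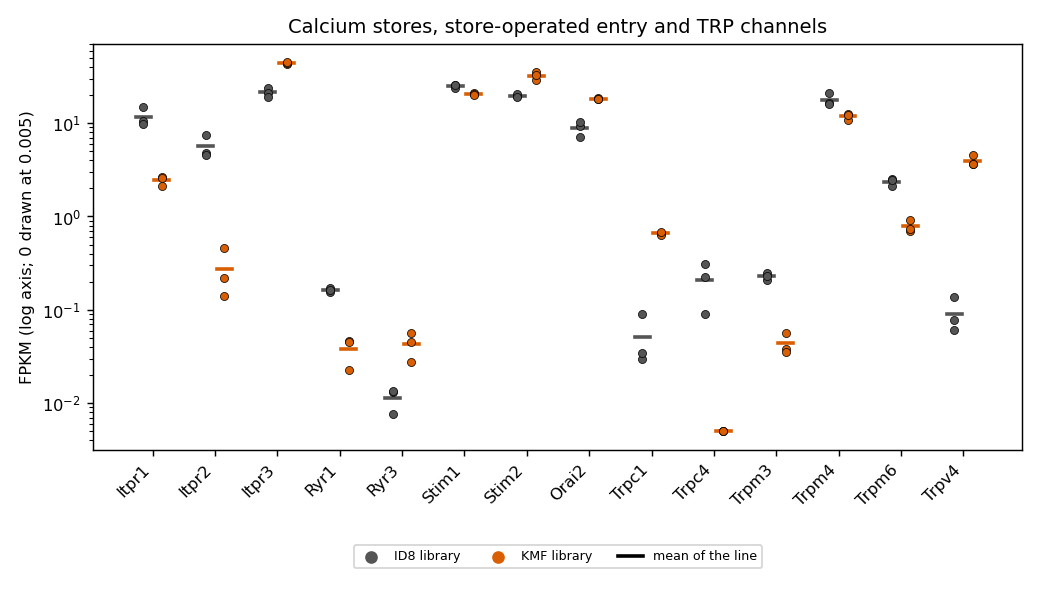
FPKM (log axis, 0 drawn at 0.005) of the calcium store, store-operated entry and TRP genes in each ID8 library (grey) and KMF library (orange), with a bar for the mean of each line. Itpr1 and Itpr2 lie lower in KMF and Itpr3, Stim2 and Orai2 higher, and Trpv4 and Trpc1 rise above ID8 while Trpc4 is at 0 in KMF.

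Chloride channels, CLIC proteins and anoctamins had 12 members, 6 higher and 6 lower, with a median log2 fold change of -0.02. The 5 intracellular and membrane CLIC and anoctamin genes at more than 1 FPKM that rose were Clic1, Clic4, Clic5, Clic3 and Ano1, and Clic1 was the most abundant of all 142 members, with 193, 221 and 196 FPKM in ID8 and 290, 268 and 263 FPKM in KMF (0.47 ± 0.09 SE, edgeR adjusted p = 0.00407). Clic3 rose from 1.74, 1.53 and 1.91 to 3.93, 4.86 and 5.64 FPKM (1.52 ± 0.23, edgeR adjusted p = 0.00154). Clic5 went from 12.9 ± 1.49 to 28.4 ± 1.30 FPKM (SD) and Ano1, the calcium-activated chloride channel of epithelia, from 42.0 ± 4.89 to 52.1 ± 3.80 FPKM, a call that 7 of 16 alternatives ended, as 5 of 16 did for Clic4. Cftr, the cyclic AMP-regulated chloride channel of epithelia, fell from 7.71, 6.50 and 6.80 to 0.437, 0.695 and 0.597 FPKM, an 11.8-fold lower level (-3.56 ± 0.18, edgeR adjusted p = 1.19e-05). Ano3 was at 1.13, 1.87 and 1.49 FPKM in ID8 and 0.139, 0.187 and 0.0853 FPKM in KMF (-3.43 ± 0.34, edgeR adjusted p = 0.000184). The Clcn genes Clcn4-2, Clcn2 and Clcn7 fell by 0.94, 0.58 and 0.41 on the log2 scale, and Ano8 by 0.39. Ano7 had 0, 0 and 3 counts in ID8 and 11, 19 and 30 in KMF, a ratio of 19.8 (6.47 to 98.9), and its fitted value of 4.16 ± 0.83 (edgeR adjusted p = 0.00539) was 3.55 without ID8 replicate 1 and 7.32 without ID8 replicate 3.

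Ligand-gated channels, which open on glutamate, acetylcholine, glycine or ATP, had 12 members, of which 10 were fitted, 7 fell and 3 rose. The glutamate receptor subunit Gria3 was at 4.27, 4.01 and 2.27 FPKM in ID8 and 0.0407, 0.175 and 0.0810 FPKM in KMF (-5.13 ± 0.46 SE, edgeR adjusted p = 0.000112). The kainate receptor subunits Grik5 and Grik2 and the ATP receptor P2rx6 fell by 3.63, 3.92 and 3.49. Glrb, the beta subunit of the glycine receptor, had 29, 31 and 12 counts in ID8 and 0 in each KMF library, at least 24.2-fold lower (edgeR adjusted p = 0.00333). The ATP-gated P2rx4 was the most abundant, with 20.1, 21.3 and 25.5 FPKM in ID8 and 29.4, 34.5 and 34.8 FPKM in KMF (0.60 ± 0.11, edgeR adjusted p = 0.0032), and P2rx7 rose by 0.38 ± 0.10, a call lost with upper quartile scaling (edgeR adjusted p = 0.0679). Grin1, the subunit that every NMDA receptor holds, was at 0, 0.0484 and 0.0456 FPKM in ID8 and 0.555, 1.24 and 1.06 FPKM in KMF (4.98 ± 0.67, edgeR adjusted p = 0.000831, and 4.34 without ID8 replicate 1). Its antisense gene Grin1os, which covers 13.5% of its exonic bases, was higher in KMF by 6.83 ± 0.74 in the same fit. The partner subunit Grin2d fell by 0.92 ± 0.18. Chrne, at 0 in KMF, and Grik4, with 1 KMF count, were too low to be fitted.

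The adhesion receptors, which carry a long extracellular part that is cleaved next to the membrane, held the largest rise of the fitted members, Gpr133, and the most abundant receptor of ID8, Gpr56. Gpr133 (Adgrd1, chr5:129096750-129204599) was at 0.125, 0.217 and 0.204 FPKM in ID8 and at 27.6, 11.1 and 11.6 FPKM in KMF. It rose 95.9-fold (log2 fold change 6.58 ± 0.49 SE, edgeR adjusted p = 5.64e-05), with KMF replicate 1 more than 2-fold above the other KMF libraries. Gpr56 (Adgrg1, chr8:94977109-95014208), a receptor for matrix proteins, was at 116, 96.0 and 99.3 FPKM in ID8 and at 5.06, 1.74 and 1.95 FPKM in KMF. Its level was 34.8-fold lower (-5.12 ± 0.41, edgeR adjusted p = 7.05e-05) and 54.0-fold lower without KMF replicate 1. Gpr125 fell from 49.3, 49.996 and 58.7 to 26.8, 25.8 and 22.8 FPKM (-1.02 ± 0.10, edgeR adjusted p = 0.000168). Gpr124 was at 0.813, 0.805 and 0.575 FPKM in ID8 and 1.86, 1.08 and 1.03 FPKM in KMF (0.89 ± 0.29, edgeR adjusted p = 0.0416). The call of Gpr124 was lost without ID8 replicate 1 (edgeR adjusted p = 0.0848), ID8 replicate 2 (edgeR adjusted p = 0.0665), ID8 replicate 3 (edgeR adjusted p = 0.114) or KMF replicate 1 (0.58, edgeR adjusted p = 0.108). It was also lost under RLE scaling (edgeR adjusted p = 0.0557), upper quartile scaling (edgeR adjusted p = 0.0758), a stricter filter (10 counts or more in each library, edgeR adjusted p = 0.0567) and limma on log2(FPKM + 0.1) and log2(FPKM + 1) (limma adjusted p = 0.0632 and 0.0662). Gpr64 was called at 0.29 ± 0.09, but 12 of 16 alternatives ended that call, with values from 0.18 (upper quartile scaling, edgeR adjusted p = 0.202) to 0.30 (without ID8 replicate 3, edgeR adjusted p = 0.0721). Gpr97 had 37 ID8 counts and 1 KMF count and was not fitted.

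Receptors for lipids, proteases and nucleotides had 18 members, of which 15 were fitted, 8 fell and 6 rose. Among the protease-activated receptors, which are opened by cleavage of their own amino terminus, F2r (PAR1) was the most abundant of the class, at 56.9, 62.6 and 48.2 FPKM in ID8 and 50.6, 35.6 and 34.8 FPKM in KMF, with overlapping lines and no call (-0.43 ± 0.17 SE, edgeR adjusted p = 0.0889). It was called without KMF replicate 1 (-0.62, edgeR adjusted p = 0.00757), and also with upper quartile scaling (-0.54, edgeR adjusted p = 0.0403), the replicate block (-0.44, edgeR adjusted p = 0.0479), adjustment over the fitted genes alone (edgeR adjusted p = 0.0357), DESeq2 (-0.48, DESeq2 adjusted p = 0.0296) and limma on log2(FPKM + 0.1) (-0.48, limma adjusted p = 0.0486). F2rl1 (PAR2), opened by trypsin-like proteases, rose from 0.603, 1.40 and 0.467 to 10.4, 5.85 and 7.42 FPKM (3.31 ± 0.42, edgeR adjusted p = 0.000607, and 3.92 without ID8 replicate 2). F2rl2 (PAR3) fell from 1.60, 3.21 and 1.84 to 0, 0.121 and 0.0481 FPKM (-5.24 ± 0.65, edgeR adjusted p = 0.000563, and -6.18 without KMF replicate 2). The 3 genes lie in 1 stretch of chromosome 13, between 95511732 and 95702739. F2rl1 was called higher and F2rl2 lower, and F2r had a negative value that was not called in the main fit.

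Lysophosphatidic acid receptors were of low level, and Lpar3 and Lpar1 were called higher. Lpar3 was at 0.150, 0.498 and 0.0937 FPKM in ID8 and 1.90, 0.816 and 0.918 FPKM in KMF (2.34 ± 0.63 SE, edgeR adjusted p = 0.02). It was not called without ID8 replicate 1 (2.06, edgeR adjusted p = 0.0819) or KMF replicate 1 (1.88, edgeR adjusted p = 0.0613) and was 3.33 without ID8 replicate 2. Lpar1 went from 0.0714 ± 0.034 to 0.349 ± 0.207 FPKM (SD), a call that 5 of 15 alternatives ended. Lpar4 and Lpar5 were too low to be fitted, at 11, 7 and 18 against 1, 3 and 4 counts and at 2, 2 and 7 against 6, 32 and 38 counts. Sphingosine 1-phosphate receptors were lower, S1pr2 from 6.52 ± 0.95 to 2.83 ± 0.70 FPKM and S1pr3 by 3.40 ± 0.46 on the log2 scale (-4.04 without KMF replicate 1). Prostaglandin receptors Ptger3, Ptger4 and Ptgfr fell by 3.79, 1.66 and 1.92, whereas Ptger1, the most abundant of them, rose from 9.89 ± 0.75 to 12.7 ± 0.58 FPKM (SD, log2 fold change 0.40 ± 0.08 SE, edgeR adjusted p = 0.00697). Without KMF replicate 2 the value of Ptger3 was -5.09, and it was -3.15 without ID8 replicate 2 and -3.06 without KMF replicate 3. Ptgfr was not called without ID8 replicate 1, ID8 replicate 2 or KMF replicate 3 (edgeR adjusted p = 0.0585, 0.0506 and 0.0754) and was at -2.68 without KMF replicate 1. Adora2b, a low-affinity adenosine receptor, was at 0.993, 1.98 and 0.908 FPKM in ID8 and 0.0230, 0.0469 and 0.0163 FPKM in KMF (-5.40 ± 0.60, edgeR adjusted p = 0.000323), and Adora1 fell by 2.63 ± 0.30. The nucleotide receptors P2ry2 and P2ry6 rose, from 11.9 ± 1.73 to 20.2 ± 2.56 FPKM and from 0.395 ± 0.039 to 1.53 ± 0.309 FPKM (SD), and P2ry14 was at 0 counts in KMF.

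**Figure D5:**
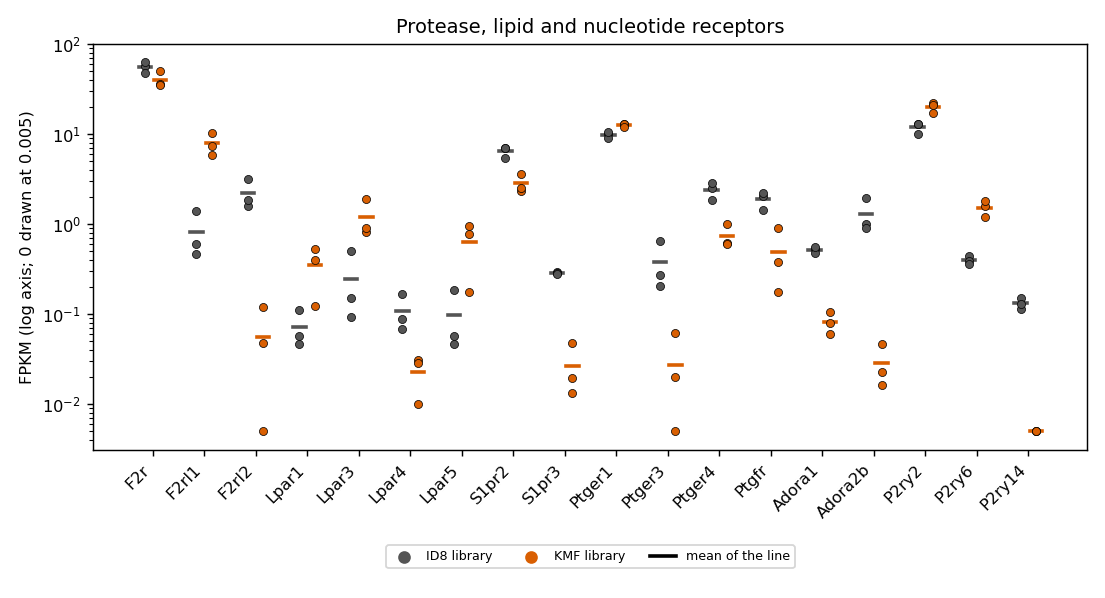
FPKM (log axis, 0 drawn at 0.005) of the protease, lysophosphatidic acid, sphingosine 1-phosphate, prostaglandin, adenosine and nucleotide receptor genes in each ID8 library (grey) and KMF library (orange), with a bar for the mean of each line. F2rl1 rises and F2rl2 falls beside the abundant F2r, Lpar1 and Lpar3 rise, and both adenosine receptors fall.

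Receptors for amines, peptides and hormones had 7 members, 2 higher and 4 lower. Adra1d, an alpha-1 adrenergic receptor, had 15, 22 and 31 counts in ID8 and 0 in each KMF library, at least 22.8-fold lower (edgeR adjusted p = 0.00266). Adrb1, a beta-1 adrenergic receptor that raises cyclic AMP, was not called (-1.03 ± 0.38 SE, edgeR adjusted p = 0.0678), but 7 of 16 alternatives called it lower, among them without ID8 replicate 3 (-1.24, edgeR adjusted p = 0.0388) and DESeq2 (DESeq2 adjusted p = 0.0325). The serotonin receptors moved apart. Htr6, which raises cyclic AMP, was at 0.174, 0.159 and 0.117 FPKM in ID8 and 2.59, 2.26 and 1.71 FPKM in KMF (3.88 ± 0.31, edgeR adjusted p = 7.23e-05). Htr1b, which lowers cyclic AMP, was at 1.39, 2.03 and 1.21 against 0.197, 0.486 and 0.414 FPKM (-2.03 ± 0.36, edgeR adjusted p = 0.00299). Calcrl, the receptor of adrenomedullin and related peptides, was the most abundant of the class in ID8 and fell from 5.24, 5.54 and 4.57 to 1.63, 2.66 and 1.59 FPKM (-1.35 ± 0.22, edgeR adjusted p = 0.00197). Its partners Ramp1 and Ramp2, which set its ligand, fell by 1.15 ± 0.10 and 0.75 ± 0.17, and the third partner, Ramp3, was too low to be fitted, with 1, 0 and 1 counts in ID8 and 4, 3 and 14 in KMF (a KMF to ID8 ratio of 10.4, 2.55 to 91.7). Chrm3 fell by 1.85 ± 0.43.

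The numbered receptors of the Gpr and Gprc series had 14 members, of which 12 were fitted, 4 rose and 7 fell. Gprc5a, a retinoic acid-induced receptor of epithelia, rose from 8.19, 11.6 and 4.21 to 118, 73.3 and 96.4 FPKM (3.62 ± 0.36 SE, edgeR adjusted p = 0.000191), which made it the most abundant receptor in KMF. Gprc5c of the same family fell from 13.2, 13.5 and 5.12 to 1.63, 2.58 and 3.44 FPKM (-2.01 ± 0.41, edgeR adjusted p = 0.00569), with ID8 replicate 3 between the other ID8 libraries and KMF. Gpr20 (chr15:73694604-73707505) was at 0.221, 0.232 and 0.164 FPKM in ID8 and 3.48, 6.92 and 4.82 FPKM in KMF (4.65 ± 0.34, edgeR adjusted p = 5.39e-05). Gpr160 and Gpr173 fell, from 0.847, 0.722 and 0.896 to 0.0840, 0.0515 and 0.0477 FPKM (-3.70 ± 0.36, edgeR adjusted p = 0.000166) and from 0.545, 0.495 and 0.321 to 0.0611, 0.0980 and 0.0806 FPKM (-2.46 ± 0.35, edgeR adjusted p = 0.00114). Gpr161, a regulator of cyclic AMP in the cilium, rose by 0.96 ± 0.15. Gpr176 was not called (-2.02 ± 0.88, edgeR adjusted p = 0.129), with 29 counts in KMF replicate 1 and 4 and 3 in the other KMF libraries, and was called without KMF replicate 1 (-3.89, edgeR adjusted p = 0.00962), while the value was -1.42 without ID8 replicate 2 and -1.43 without KMF replicate 3. Gpr3 and Gpr142 were too low to be fitted.

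RGS proteins fell in 6 of 7 cases. Rgs4, which acts on the Gi and Gq classes, was at 12.6, 16.5 and 13.7 FPKM in ID8 and 0.346, 0.0883 and 0.133 FPKM in KMF (-6.22 ± 0.36 SE, edgeR adjusted p = 2.20e-05), 74.7-fold lower and 119-fold lower without KMF replicate 1. Rgs5 was at 0.530, 1.43 and 0.124 FPKM in ID8 and 0.135, 0.0634 and 0.00735 FPKM in KMF, where the lines overlap (-3.38 ± 1.03, edgeR adjusted p = 0.0344). Its call was lost without ID8 replicate 1 (-3.54, edgeR adjusted p = 0.0631), ID8 replicate 2 (-2.29, edgeR adjusted p = 0.115), KMF replicate 2 (-3.33, edgeR adjusted p = 0.102) or KMF replicate 3 (-2.72, edgeR adjusted p = 0.103), and the value was -4.36 without KMF replicate 1. Limma did not call Rgs5 on log2(FPKM + 0.1) (-1.90, limma adjusted p = 0.0564) or log2(FPKM + 1) (-0.59, limma adjusted p = 0.119). Rgs11 was the most abundant, at 34.0, 20.7 and 44.1 FPKM in ID8 and 11.2, 17.2 and 17.0 FPKM in KMF (-1.08 ± 0.27, edgeR adjusted p = 0.0151). Rgs3, Rgs2 and Rgs12 fell by 1.34, 1.33 and 0.77. Rgs14 had 0, 0 and 1 counts in ID8 and 10, 20 and 16 in KMF, a ratio of 45.6 (7.79 to 1842), and was called higher (5.12 ± 0.85, edgeR adjusted p = 0.00225, and 6.99 without ID8 replicate 3).

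A further 9 members share the letters of the rule but are no channels or receptors of these families, or were placed apart because their role is not settled. Ptgfrn, a membrane protein, rose from 16.9, 21.1 and 18.2 to 75.9, 68.7 and 61.1 FPKM (1.91 ± 0.12 SE, edgeR adjusted p = 3.27e-05). Grina rose from 152, 161 and 146 to 201, 232 and 214 FPKM (0.54 ± 0.08, edgeR adjusted p = 0.00161). Tmem164 fell from 37.2, 32.9 and 42.7 to 13.8, 15.8 and 18.3 FPKM (-1.19 ± 0.12, edgeR adjusted p = 0.000233), and Nprl3, a part of the amino acid-sensing GATOR1 complex, from 11.5, 9.50 and 10.1 to 6.57, 7.18 and 7.21 FPKM (-0.53 ± 0.10, edgeR adjusted p = 0.00452). Without these 9 genes the channels were called 23 higher and 47 lower, the receptors 15 higher and 21 lower, and the RGS proteins 1 higher and 6 lower.

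Genes that act with the members were taken from lists of the pathway, and the table held part of each. Listed genes outside the table are not in these counts. Of all fitted genes, 45.4% were called higher and 47.5% lower, which is the scale for the counts of each list. G protein subunits (13 of 30 listed, 12 fitted) were called 8 higher and 4 lower, with Gngt2 the largest rise of the fitted genes (3.24 ± 0.71 SE) and Gna14, a subunit of the Gq class, the largest fall (-4.08 ± 0.90). The abundant Gnai2 rose by 0.44 ± 0.07, from 156 to 206 FPKM. Of 8 receptor kinases and arrestins, Grk6 and Arrb1 rose by 0.85 and 0.80 and Arrb2 fell by 0.38. Adenylyl cyclases and phospholipase C beta (6 of 14) were called 1 higher, Adcy6 (0.43 ± 0.10), and 5 lower, with Adcy3 lowest at -1.55 ± 0.18. Genes for cyclic AMP breakdown and its effectors (11 of 22) were called 5 higher and 6 lower, between Rapgef3 (2.02 ± 0.11), the exchange factor Epac1, and Pde8a (-1.92 ± 0.47).

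Calcium pumps, exchangers and the mitochondrial uniporter (10 of 20) were called 8 higher and 2 lower. The summed level of these 10 genes was 896 to 951 CPM in ID8 and 1506 to 1657 CPM in KMF. Listed genes outside the table, which the authors had not called different, are not in this sum. Atp2a3, a pump that refills the calcium store, went from 14.4 to 93.7 FPKM (2.74 ± 0.15 SE, edgeR adjusted p = 2.03e-05), and the sodium-calcium exchanger Slc8a1 fell by 1.98 ± 0.29. Calmodulin, its kinases, calcineurin and NFAT (14 of 25) were called 8 higher and 4 lower, with Camk1d at 3.68 ± 0.14 and Rcan2 at -0.56 ± 0.12. The sodium-potassium pump (7 of 13) was called 3 higher and 4 lower. Its beta subunit Atp1b2 fell from 30.2 to 0.307 FPKM (-6.58 ± 0.21, edgeR adjusted p = 3.09e-06), beside a rise of Atp1b3 from 57.9 to 97.0 FPKM, and Fxyd3 rose most (1.91 ± 0.17). Ligands and the enzymes that make or clear them (25 of 43, 21 fitted) were called 9 higher and 12 lower. Nt5e, the ectoenzyme that makes adenosine from AMP, fell from 5.41 to 0.0483 FPKM (-6.77 ± 0.62, edgeR adjusted p = 0.000133), as Adora2b and Adora1 did. Enpp2, which makes lysophosphatidic acid, fell from 101 to 39.1 FPKM, and Ptgds, a prostaglandin D synthase, rose most of the fitted genes (2.96 ± 0.54).

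The members were alike across libraries of a line, with correlations of log2 CPM over the 125 fitted members between 0.968 and 0.989 within a line and between 0.678 and 0.702 across lines. These run over genes and carry no test. Lower values across lines follow at least in part from the selection of the table, which lists genes that the authors had called different between the lines. The members lay on every autosome and on X, with 16 on chromosome 7 and 13 on chromosome 2. Copy number was not analysed here.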

How the data were processed

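RNA of 3 ID8 and 3 KMF tumorsphere cultures was sequenced as poly-A libraries. The submitters' processing notes name CASAVA 1.8, STAR 2.5, DESeq2 and mm10, and the study's methods name TopHat2. The counting tool, annotation release and strand setting are not given in the sources used here. The deposited counts are raw fragments per gene. The authors' FPKM scale them by the deposited gene length and the library total. The deposited signal columns are the authors' means per line of counts divided by size factors and were not used. The authors' log2 fold change, p-value and adjusted p-value columns hold their own comparison of the lines; only the selection of the table (largest adjusted p 0.0499) and the number of genes tested (17359) were taken from the p-values.

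Library totals, 23108407 to 33212313 fragments, were recovered from count, FPKM and length. A floor of 3 counts is 0.0903 to 0.13 CPM per library. Genes at 0 in a line were bounded by 3 counts over that line, and 95% intervals (exact, conditional binomial) cover counting error only. The edgeR 4.0.16 fit, run in R 4.3.3 (TMM, filterByExpr, quasi-likelihood), kept 6967 of 7320 genes, with Benjamini-Hochberg adjustment over 17359 genes. The step was tested on simulated data. No 2 libraries agreed within sampling noise (lowest chi-square per gene 19.9). Positions are those of the deposited table; 7286 listed identifiers overlap their place in GENCODE M21 (GRCm38).

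The members, role classes and gene lists were chosen with earlier results of these data known, and 6 members were put in a class after their symbols were seen. Genes chosen to be given in every library were, per class, up to 2 called members with the largest rise, up to 2 with the largest fall and the member with the highest mean FPKM; in the pathway lists they were the called gene with the largest change in each direction. Other members named, some of them also with a value in every library (Gprc5c, Trpc4, Lpar4 and Lpar5), were chosen after their values were seen. Some genes that this rule names are not reported here. Alternatives were other scalings, filters, DESeq2 1.42.0, limma 3.58.1 on log2(FPKM + 1) and log2(FPKM + 0.1), a replicate block and leaving out each library. Figures were drawn with matplotlib 3.10.9, and tables made with pandas 2.3.3, scipy 1.17.1, numpy 2.4.6 and Python 3.11.15.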

Additional observations from a re-analysis of the deposited data

How the results depend on the processing

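No member reversed direction in any alternative. The count of called members, 121, was between 115 and 138 under other scalings, DESeq2, limma, no filter and adjustment over the fitted genes alone. Requiring at least 10 counts in every library left 75 of the 121 calls fitted, since that filter removes members near 0 in a line. It gave 70 called members, 27 higher and 43 lower, with a median log2 fold change of -0.59, against 0.20 over all fitted genes. The members' median was -1.36 with no filter, -0.98 on log2(FPKM + 0.1) and -0.43 on log2(FPKM + 1), where the pseudocount shrinks low genes. Leaving out 1 library at a time gave 108 to 121 called members (36 to 42 higher, 72 to 81 lower) and medians from -1.26 to -1.07. Upper quartile scaling moved the median of all fitted genes from -0.23 to -0.35 and gave 37 members higher and 80 lower. With a replicate block 119 members were called, 117 of them shared, but the numbers share no design: deviations of same-numbered libraries correlated at 0.0737, -0.0877 and 0.108, and not every library correlated best with its own number. For the named genes, 853 of 887 alternative values kept their call, 28 lost it and 6 gained it. Depth limits members at a few counts in a line, whose fitted fold changes depend on the prior count.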

Other observations

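A few genes of the same families lie outside the rule because the table uses older or noncoding symbols. Lphn1 (now Adgrl1) fell from 26.9 to 8.01 FPKM in KMF (log2 fold change -1.70 ± 0.16 SE, edgeR adjusted p = 0.000152), while Bai2 (Adgrb2), an adhesion receptor of the brain, rose from 0.835 to 7.43 FPKM (3.20 ± 0.38, edgeR adjusted p = 0.000473). Lphn2 (Adgrl2) and Cd97 (Adgre5) rose by 0.63 ± 0.17 and 0.52 ± 0.11. With the 6 adhesion receptors among the members, the family thus held changes in both directions. The noncoding genes Chrna1os and Gpr137b-ps were lower (-3.65 ± 0.55) and higher (0.73 ± 0.19) in KMF, and Gpr137b-ps resembles a coding gene closely enough that its reads may be shared.

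Single libraries stood apart for some members. A level at or under 50% of both other libraries of the line was seen for 10 of 125 fitted members in ID8 replicate 3, 10 in KMF replicate 2 and 3 to 8 in the other libraries, and a level at least 2-fold above both others for 16 members in KMF replicate 1 and 1 to 9 elsewhere.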
